A study of Mus musculus with 107 samples.

Results

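The tumors described here were 3 tumors of the BNL 1ME A.7R.1 model collected on day 8 of treatment with lenvatinib (LEN) and 3 untreated (NT) tumors of the same model and day, 6 of the 107 tumors of the series. They were chosen by the model, treatment and day in their labels (LEN replicates 2, 4 and 5, NT replicates 1, 3 and 4), and all genes of the table were considered. BNL 1ME A.7R.1 is a mouse hepatocellular carcinoma cell line, grown here under the skin of the right flank of male BALB/cAnNCrlCrlj mice with an intact immune system, so the tumors are those of 1 line outside the liver. LEN mice received 10 mg/kg by mouth each day for 7 days from a tumor volume of about 100 mm3, and NT mice received nothing. The series holds 12 such transplanted models, each with 3 LEN and 3 NT tumors on day 8, and tumors taken without treatment at about 100 mm3 (Base). The question was how the transcriptome of a liver tumor model differed after 1 week of an antiangiogenic drug.

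LEN inhibits a group of receptor tyrosine kinases, foremost the VEGF receptors on endothelial cells (ECs), together with FGF receptors, PDGF receptor alpha, KIT and RET. VEGF made by cells short of oxygen binds these receptors and drives endothelial tip cells to sprout, so that a tumor gains new microvessels. When the signal is blocked, vessels that depend on it regress, and tumor cells can answer the loss of oxygen with hypoxia-inducible genes.

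The deposited unit was TPM, whose total is fixed for every tumor, so the depth and counting error of each value are unknown and the precision rests on 3 tumors per group. The labels number the tumors without naming the animals, so p-values measure the spread between these tumors. On log2(TPM + 1) over the 17009 tested genes, Pearson's r was 0.953 to 0.963 between tumors of the same group and 0.902 to 0.918 between NT and LEN tumors. Protein-coding genes took 54.3% to 57.4% of the TPM of the NT tumors and 60.2% to 61.9% of that of the LEN tumors, while the non-coding RNAs Rn7s1 and Rn7s2 together took 12.7% to 14.1% and 9.11% to 10.1%. The Base tumors of this model carried Xist, the RNA of an inactive X chromosome, at 35.3 to 55.0 TPM and the Y-linked gene Ddx3y at 0, whereas in the 6 day 8 tumors Xist was at most 0.55 and Ddx3y 3.70 to 6.76 TPM. The Base tumors therefore went against the male hosts named in the methods, and their values are given only as a description. In tumor tissue, fewer cells of a type and less RNA per cell cannot be told apart.

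Of 17009 genes with a mean of at least 1 TPM, 887 were lower after LEN (5.21%) and 4478 were higher (26.3%) at a limma adjusted p under 0.05. The log2 changes quoted are LEN minus NT of log2(TPM + 1) ± SE with n = 3 per group, and they understate the change of genes near 0. The median gene was 0.17 higher on this scale. With median-of-ratios scaling in place of TPM, which moved that median to -0.01, 1968 genes were lower and 2310 higher, among them 884 of the 887 and 2310 of the 4478. Counts of list members called higher are to be read against the 26.3%. The share was near it for the Notch, ERK feedback, fibroblast, neutrophil, immediate early and endothelial transcription factor lists described here. It was also near it for the LEN target receptor, VEGF ligand, junction and basement membrane lists. For the capillary, arterial, mural cell, cholesterol, cell cycle and EC-related lists it was lower. Small rises therefore depended on the scaling, and falls were larger under it.

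**Figure D1:**
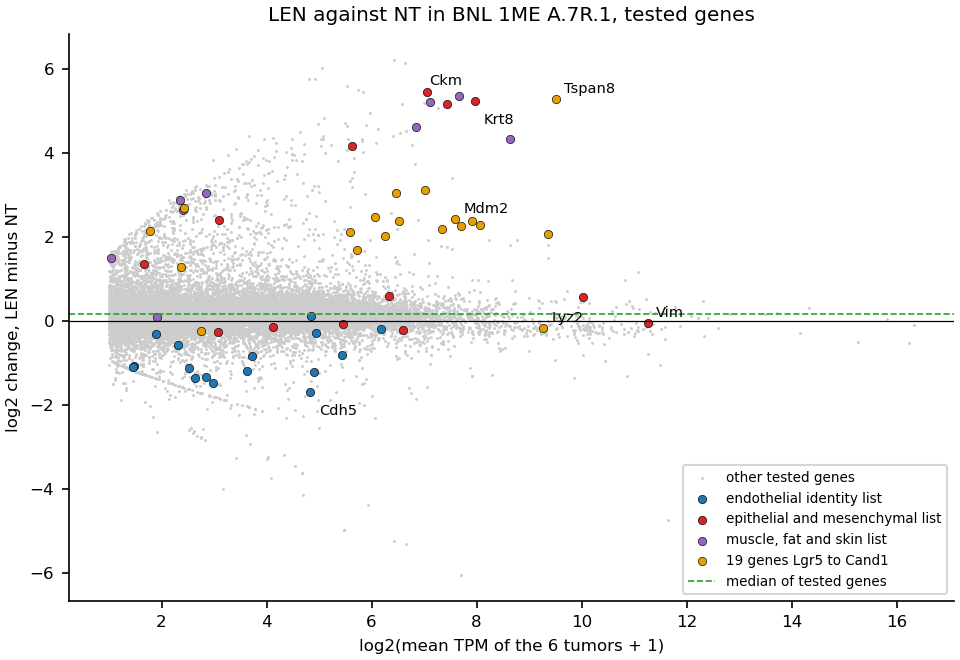
Log2 change of each tested gene (vertical axis, LEN minus NT) against log2 of its mean TPM plus 1 over the 6 tumors (horizontal axis), with 4 groups of genes in color and the median of the 17009 tested genes, 0.17, as a dashed line. Endothelial identity genes lie mostly below 0, while Krt8, Tspan8, Mdm2 and Ckm lie above 2.

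The genes that define endothelial cells were mostly lower after LEN, while other vascular lists were mixed. The MVD gene score, which the study defined as a proxy of microvessel density from Cdh5, Eng, Kdr, Pcdh12, Sparcl1 and Tek, was 4.71, 4.78 and 4.67 in the NT tumors and 3.88, 3.84 and 3.86 in the LEN tumors, as the mean of log2(TPM + 1). The difference was -0.86, and the groups did not overlap. Of the 6 genes, 4 passed the test and each of these was lower. The study chose the score genes in part on Base tumors of these models, so the score is not independent evidence on vessels.

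Cdh5, the cadherin of endothelial junctions, was at 42.0, 44.1 and 41.2 TPM in the NT tumors and 12.5, 13.8 and 11.4 in the LEN tumors, 3.38-fold lower in the mean (log2 change -1.68 ± 0.08, adjusted p = 4.23e-05). Kdr, the main signaling VEGF receptor, went from 10.2, 10.9 and 9.36 to 3.94, 4.29 and 4.45 TPM (-1.09 ± 0.10, adjusted p = 0.000436). Pcdh12, an endothelial protocadherin, went from 7.13, 7.25 and 5.72 to 1.39, 1.55 and 1.31 TPM (-1.67 ± 0.13, adjusted p = 0.000270). In each of these genes every LEN tumor lay below every NT tumor. Eng, the endothelial co-receptor of TGF-beta and BMP ligands, differed little, with 76.3, 78.4 and 72.7 TPM against 67.0, 68.0 and 64.5 (-0.19 ± 0.06, adjusted p = 0.0417), and lost its call when any single tumor was left out. Sparcl1, a matricellular gene, had 245 to 311 TPM in the NT tumors and 225 to 261 in the LEN tumors (-0.19 ± 0.10, adjusted p = 0.209), and Tek, the angiopoietin receptor, 2.98 to 3.25 and 1.79 to 2.63 (-0.32 ± 0.15, adjusted p = 0.157). Neither passed the test, though Sparcl1 was called lower after median-of-ratios scaling.

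Of 16 endothelial identity genes, 13 were lower and 0 higher, with a median change of -1.09. Pecam1, which encodes CD31, was at 43.0, 45.0 and 33.9 TPM in the NT and 15.7, 14.4 and 21.3 in the LEN tumors (-1.21 ± 0.17, adjusted p = 0.00231). Tie1, an orphan endothelial receptor, went from 10.8, 10.8 and 10.4 to 2.78, 3.55 and 3.16 TPM (-1.49 ± 0.11, adjusted p = 0.000151), and Robo4 and Emcn changed by -1.37 and -1.32. The members that missed the threshold were Tek, Cd34 (-0.28) and Ecscr (0.11), of which Cd34 was called lower after median-of-ratios scaling.

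Genes of endothelial tip cells, the leading cells of a sprout, were lower for 10 of 16 and higher for 1, with a median of -0.51. Esm1, a proteoglycan secreted by tip cells, was at 5.76, 3.97 and 5.13 TPM in the NT tumors and 0.38, 0.17 and 0.09 in the LEN tumors, 23.2-fold lower (-2.29 ± 0.19, adjusted p = 0.000300). Apln, the ligand of the apelin receptor, went from 23.7, 18.6 and 17.3 to 7.01, 7.32 and 5.86 TPM (-1.43 ± 0.14, adjusted p = 0.000555), Trp53i11 from 28.4, 32.9 and 35.2 to 8.01, 8.30 and 8.04 (-1.86 ± 0.09, adjusted p = 4.52e-05), and Nid2, a basement membrane nidogen, from 28.5, 28.4 and 29.9 to 9.31, 9.22 and 10.5 (-1.49 ± 0.08, adjusted p = 4.73e-05). The LEN tumors lay below the NT tumors in all 4. Pdgfb, the growth factor that recruits pericytes, was the member called higher (0.42 ± 0.07, adjusted p = 0.00506), and it missed the threshold after median-of-ratios scaling (adjusted p = 0.0853). The call was lost for Pdgfb (in the fit of 72 tumors).

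Not all vascular lists moved one way. Among venous and adhesion genes, 7 of 9 tested were higher and 1 lower (median 1.42; 6 higher and 2 lower after median-of-ratios scaling). Vcam1, a leukocyte adhesion molecule, was at 44.6, 49.4 and 48.7 TPM in the NT and 162, 116 and 114 in the LEN tumors (1.42 ± 0.14, adjusted p = 0.000552). Lrg1, a secreted glycoprotein of activated venules, went from 4.97, 3.24 and 2.36 to 18.8, 20.6 and 18.6 TPM (2.21 ± 0.20, adjusted p = 0.000445), and the chemokine-binding receptor Ackr1 from 0.08, 0.14 and 0.28 to 2.04, 2.18 and 2.18 (1.43 ± 0.19, adjusted p = 0.00183). Vwf and Selp, stored together in endothelial granules, changed by 1.51 and 1.75. Icam2, which endothelial cells express constitutively, fell in the same list (-1.68 ± 0.26, adjusted p = 0.00384), while Icam1 rose (1.33 ± 0.10, adjusted p = 0.000185).

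Capillary genes split, with 4 of 10 lower and 2 higher (median -0.06). Gpihbp1, which holds lipoprotein lipase on the capillary wall, was at 17.3, 17.2 and 16.9 TPM in the NT tumors and 2.42, 2.00 and 4.55 in the LEN tumors (-2.23 ± 0.22, adjusted p = 0.000599), whereas Lpl, that lipase, rose from 2.6, 2.70 and 1.18 to 17.3, 9.39 and 21.4 TPM (2.40 ± 0.33, adjusted p = 0.00228) and the fatty acid carrier Cd36 changed by 1.47. Both Lpl and Cd36 are also expressed by fat and muscle. Of 7 tested arterial genes, 1 was lower (Fbln5, -0.49) and 1 higher (Efnb2, 1.01 ± 0.07, adjusted p = 0.000127). Of 5 tested lymphatic genes, 1 was lower, Flt4. Of 16 tested endothelial transcription factors, 4 were lower and 5 higher (5 lower and 4 higher after median-of-ratios scaling): Sox18 (-1.59 ± 0.14, adjusted p = 0.000407), Sox7 (-1.29) and Erg (-1.21) fell, and Klf4 (1.60), Hhex (1.30) and Ets2 (1.14), which other cell types express as well, rose.

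Junction genes had 5 of 10 lower, among them Cldn5, the claudin of tight endothelial barriers (8.68, 10.2 and 8.06 TPM in NT, 2.72, 2.25 and 2.20 in LEN, -1.56 ± 0.13, adjusted p = 0.000285), and 3 higher. The 3 were Jam2 (3.52 ± 0.18, adjusted p = 4.96e-05), F11r (1.73) and Ocln (2.05), which epithelial cells also express. In the Notch pathway 2 of 12 were lower, Dll4, the tip cell ligand (-1.36 ± 0.19, adjusted p = 0.00249), and Notch4 (-0.76), and 3 were higher, of which Hes1 (0.97) passed also after median-of-ratios scaling, where its change was 0.77, and Jag1 and Jag2 did not. Of 5 tested angiopoietin and Tie genes, 3 were lower, namely Tie1, Angpt1 (-0.58) and Angpt2 (-0.41), but Angpt2 missed the threshold whichever tumor was left out, and so did Angpt1 except when LEN replicate 5 was left out. Single settings ended the call of Jag1 (in the fit of 72 tumors), Jag2 (without NT replicate 4) and Notch4 (without LEN replicate 2 or 5 or NT replicate 1 or 3). A two-group test per gene, as in the study, also ended those of Dll4, Hes1, Notch4, Angpt1 and Angpt2.

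Across the 365 EC-related genes that the study took from single cells of Hepa 1-6 tumors, 364 were in the table and 338 were tested. Of these, 118 were lower, 68 higher and 152 did not pass, with a median of -0.14 beside 0.17 for all tested genes. After median-of-ratios scaling 161 were lower and 44 higher.

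**Figure D2:**
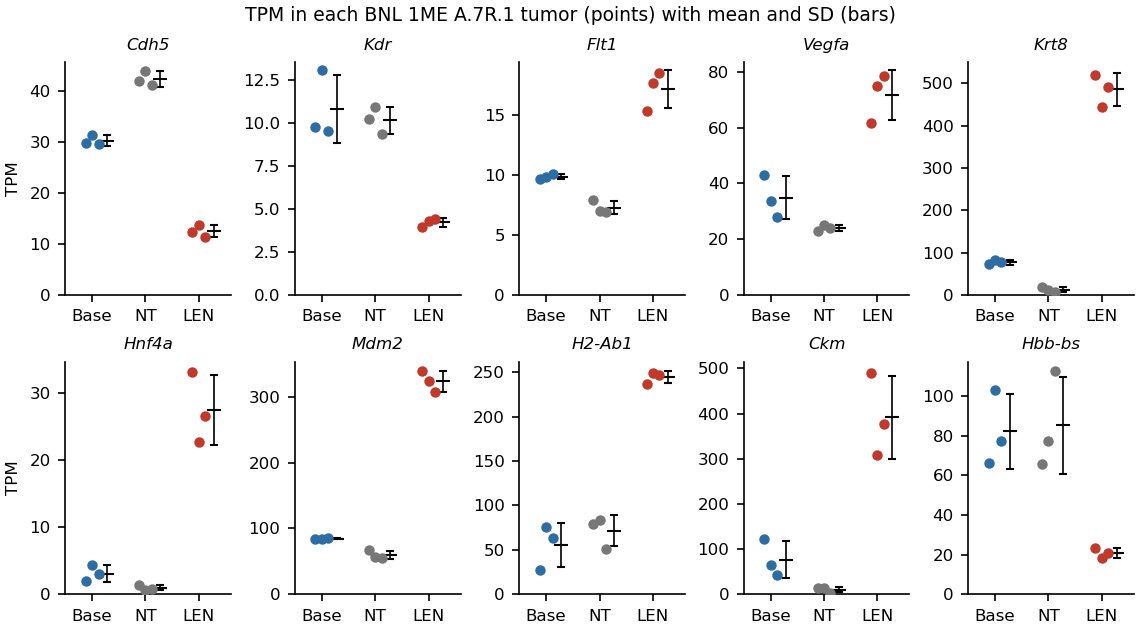
TPM of 10 genes in each BNL 1ME A.7R.1 tumor (points; vertical axes start at 0), with the mean and SD of 3 tumors beside the points, for Base, NT and LEN. Cdh5, Kdr and Hbb-bs are lower in every LEN tumor than in every NT tumor, and Flt1, Vegfa, Krt8, Hnf4a, Mdm2, H2-Ab1 and Ckm are higher.

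The 10 receptor genes in the target range of LEN did not move together. Of 8 tested, 4 were lower (Kdr, Flt4, Kit and Pdgfra) and 2 higher (Flt1 and Fgfr2), with a median of -0.47. Flt4, the receptor of VEGF-C, was at 4.74, 7.17 and 4.70 TPM in the NT and 1.00, 0.97 and 1.16 in the LEN tumors (-1.66 ± 0.18, adjusted p = 0.000881). Flt1, VEGF receptor 1, was higher in every LEN tumor, with 15.4, 17.7 and 18.5 TPM against 7.94, 6.98 and 6.93 (1.13 ± 0.10, adjusted p = 0.000388). Fgfr2 rose from 0.34, 0.68 and 0.76 to 13.2, 13.1 and 8.27 TPM (2.96 ± 0.21, adjusted p = 0.000155), and its epithelial splice form cannot be read from gene totals. Pdgfra, abundant in fibroblasts, went from 119.6, 136 and 116 to 70.5, 68.9 and 78.6 TPM (-0.76 ± 0.08, adjusted p = 0.000875), and Kit changed by -0.79 (adjusted p = 0.0184). Fgfr1 (208 to 228 TPM in NT, 168 to 209.6 in LEN; -0.18 ± 0.09, adjusted p = 0.173) and Ret (-0.17 ± 0.17, adjusted p = 0.481) did not pass, and Fgfr3 and Fgfr4, at most 2.17 and 0.28 TPM in any of the 6 tumors, were not tested. After median-of-ratios scaling Fgfr1 was called lower. Calls that did not hold throughout were those of Kit (without LEN replicate 2 or 4 and by the two-group test per gene) and Flt4 (by that test).

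Among 7 VEGF ligands and co-receptors, 1 was lower and 2 higher. Vegfa, the ligand of Kdr and Flt1, was at 22.9, 25.2 and 24 TPM in the NT tumors and 61.8, 74.9 and 78.7 in the LEN tumors, 2.99-fold higher (1.53 ± 0.10, adjusted p = 0.000110). Pgf, placental growth factor, a ligand of Flt1, went from 8.23, 7.21 and 6.31 to 1.48, 2.44 and 3.11 TPM (-1.33 ± 0.20, adjusted p = 0.00371). Vegfc changed by 0.48 and missed the threshold after median-of-ratios scaling (adjusted p = 0.0950). Vegfb (0.30), Vegfd (-0.29), Nrp1 (0.07) and Nrp2 (0.08) did not pass. The threshold was missed by Vegfc (without NT replicate 3, in the fit of 72 tumors and by the two-group test per gene) and Pgf (by that test).

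Mural cell genes were lower for 3 of 11 tested and higher for 2 (6 lower and 1 higher after median-of-ratios scaling). Rgs5, a pericyte marker, was at 23.0, 24 and 16.5 TPM in NT and 11.2, 10.7 and 12.5 in LEN tumors (-0.82 ± 0.15, adjusted p = 0.00672), Kcnj8, a potassium channel of pericytes, changed by -0.82, and Mcam, on endothelial and mural cells, by -1.27. The pericyte receptor Pdgfrb stood at 131 to 140.1 and 125 to 129 TPM (-0.09 ± 0.05, adjusted p = 0.218). Des, which skeletal muscle makes in large amounts, rose by 4.4. Basement membrane genes were lower for 7 of 12, including Lama4, the laminin chain of vessels (34.5, 40.8 and 34.6 TPM in NT, 14.1, 15.4 and 17.3 in LEN, -1.18 ± 0.10, adjusted p = 0.000348), and Col4a1 (-0.31), and higher for 3, including Lama5, a laminin chain of epithelia (8.27, 8.02 and 11 and 42.8, 42.0 and 49.2 TPM, 2.19 ± 0.13, adjusted p = 7.50e-05), and Agrn (1.02). Of 5 tested erythrocyte genes 4 were lower, and Hbb-bs, adult beta globin, went from 65.8, 77.3 and 113 to 23.2, 18.3 and 20.7 TPM (-1.96 ± 0.20, adjusted p = 0.000613). The alpha globin genes Hba-a1 and Hba-a2 are near-identical copies, so how reads were split between them is uncertain. The call was lost for Col4a1 (without LEN replicate 2 or 4 or NT replicate 1 or 3 and in the fit of 72 tumors), Hba-a2 (in the fit of 72 tumors) and Kcnj8 (without NT replicate 1 or 4). Rgs5, Kcnj8, Des, Col4a1, Hba-a1 and Hba-a2 also missed the threshold by the two-group test per gene.

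Of 39 hypoxia-responsive and glycolytic genes, 23 were higher, 2 lower and 14 did not pass, with a median of 0.44, and 16 were higher and 5 lower after median-of-ratios scaling. Ldha, which turns pyruvate into lactate, was at 214, 205 and 186 TPM in the NT tumors and 383, 375 and 412 in the LEN tumors (0.95 ± 0.07, adjusted p = 0.000172). Aldoa, a glycolytic aldolase, went from 344, 365 and 314 to 999, 865 and 1021 TPM (1.49 ± 0.09, adjusted p = 7.14e-05). Egln3, an oxygen sensor that HIF itself induces, rose from 13.8, 16.6 and 9.84 to 48.3, 54.3 and 93.4 TPM (2.17 ± 0.28, adjusted p = 0.00168), Hk2 by 0.81 and Pdk1 by 0.98. Ddit4 (-0.67) and Angptl4 (-0.48) were lower, and Car9 (0.61 ± 0.20, adjusted p = 0.0588) and Slc2a1 (0.24 ± 0.14, adjusted p = 0.236) did not pass. Genes of skeletal muscle, a tissue rich in Aldoa, were also higher in the LEN tumors, with Ckm up by 5.36, and their part in these rises was not tested. Single settings ended the call of Angptl4 (without LEN replicate 4, in the fit of 72 tumors and by the two-group test per gene). That test also ended those of Pdk1 and Ddit4.

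The promoter of Ldha is shown because it carries the core of the element that HIF binds. The 250 bases before one of its 2 RefSeq starts (chr7:46845554-46845803 of GRCm38.p6, plus strand) hold ACGTG, read on both strands, 5 times in 3 runs that begin 145, 48 and 34 bases before the start. A run CACGTG reads ACGTG on either strand and counts 2 times. Capitals mark these runs. Of the 2 starts, the start shown was picked for having the most matches.
Ldha: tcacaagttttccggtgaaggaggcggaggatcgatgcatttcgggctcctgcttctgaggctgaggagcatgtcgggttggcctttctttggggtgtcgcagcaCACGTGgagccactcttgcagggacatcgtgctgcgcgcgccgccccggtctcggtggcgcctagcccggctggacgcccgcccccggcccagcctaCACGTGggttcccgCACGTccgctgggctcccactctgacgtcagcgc
Among RefSeq promoter entries, 16.6% of all 32851 hold ACGTG within 250 bases, and 21 of the 47 entries of the 33 hypoxia genes with an entry do (44.7%). A match describes letters and not binding.

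Genes of the integrated stress response, the ATF4 program that follows amino acid or protein folding stress, were higher for 11 of 22 tested and lower for 0 (7 and 2 after median-of-ratios scaling). Chac1, which degrades glutathione, was at 2.55, 3.54 and 2.45 TPM in NT and 11, 8.89 and 8.32 in LEN tumors (1.44 ± 0.16, adjusted p = 0.000881). Atf5 went from 37.4, 32.5 and 29.1 to 75.9, 75.9 and 74.9 TPM (1.18 ± 0.09, adjusted p = 0.000231), Vldlr from 0.82, 0.61 and 0.61 to 5.55, 4.93 and 6.74 (2.00 ± 0.16, adjusted p = 0.000243), and Trib3 and Atf4 changed by 1.16 and 0.51. Asns (0.47 ± 0.19, adjusted p = 0.106) and Ddit3 (0.28 ± 0.11, adjusted p = 0.0852) did not pass. Of 17 endoplasmic reticulum chaperone genes, 5 were higher and 0 lower, a share of higher calls near the 26.3% of all genes, and 2 were higher and 3 lower after median-of-ratios scaling. Hspa5, the chaperone BiP, stood at 324 to 404 and 356 to 414 TPM (0.11 ± 0.10, adjusted p = 0.480).

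Of 20 cholesterol genes, 7 were lower and 3 higher (9 and 1 after median-of-ratios scaling). Hmgcs1, which starts the pathway, changed by -0.33 and Sqle, the squalene epoxidase, by -0.36. Calls that did not hold throughout were those of Hmgcs1 (without LEN replicate 4 or NT replicate 1 and in the fit of 72 tumors) and Sqle (without LEN replicate 2 or 5 or NT replicate 1, 3 or 4 and in the fit of 72 tumors).

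Epithelial genes and transcription factors of the liver rose. Krt8, a keratin of simple epithelia, was at 17.9, 12.2 and 7.67 TPM in the NT tumors and 520.1, 444 and 492 in the LEN tumors, 38.6-fold higher (5.23 ± 0.26, adjusted p = 4.12e-05). Its partner Krt18 went from 14.1, 8.91 and 4.48 to 365, 309 and 335 TPM (5.17 ± 0.33, adjusted p = 0.000106), and Krt19, a keratin of bile duct cells, from 8.88, 5.45 and 2.37 to 263, 238 and 279 (5.44 ± 0.35, adjusted p = 0.000110). Cdh1, epithelial cadherin, went from 4.88, 4.57 and 3.38 to 107, 78.0 and 94.0 TPM (4.16 ± 0.15, adjusted p = 1.72e-05). In all 4 genes the LEN tumors agreed to within 1.38-fold of each other and lay far above the NT tumors. The Base tumors stood between, with 71.9 to 83.2 TPM for Krt8 and 9.94 to 15.7 for Cdh1.

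Krt8 and Krt18 lie side by side on chromosome 15, on opposite strands, and their promoters are shown because both genes rose together and both hold the E-box CACCTG, the letters that SNAIL and ZEB factors bind. The 250 bases before the RefSeq starts were chr15:102004343-102004592 (minus strand) and chr15:102027966-102028215 (plus strand) of GRCm38.p6, printed 5′ to 3′ along each gene, with the E-box in capitals, beginning 111 and 214 bases before the start.
Krt8: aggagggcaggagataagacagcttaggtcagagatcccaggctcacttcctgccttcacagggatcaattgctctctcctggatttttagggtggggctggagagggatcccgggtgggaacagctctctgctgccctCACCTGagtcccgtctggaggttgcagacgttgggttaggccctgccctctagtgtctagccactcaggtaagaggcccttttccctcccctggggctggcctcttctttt
Krt18: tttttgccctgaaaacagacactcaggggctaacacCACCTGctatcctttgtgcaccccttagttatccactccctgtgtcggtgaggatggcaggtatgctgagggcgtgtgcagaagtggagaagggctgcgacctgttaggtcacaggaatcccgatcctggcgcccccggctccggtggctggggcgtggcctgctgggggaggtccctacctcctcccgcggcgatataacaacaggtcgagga
Read on both strands, CACCTG occurs in 17.2% of the 32851 promoter entries and in 6 of the 13 entries of the 10 epithelial and mesenchymal genes with an entry (46.2%). Among the factors, Snai1 (42.9 to 45.1 TPM in NT, 37.6 to 46.2 in LEN) and Zeb1 (-0.21 ± 0.08, adjusted p = 0.0854) did not pass the test, and Zeb2 rose (0.59 ± 0.09, adjusted p = 0.00302).

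Of the 13 tested epithelial and mesenchymal markers, 8 were higher and 0 lower. The mesenchymal member Vim was at 2434, 2727 and 2333 TPM in NT and 2359, 2534 and 2328 in LEN tumors (-0.05 ± 0.08, adjusted p = 0.642), and Cdh2, neural cadherin, rose from 1.80, 1.94 and 1.41 to 14.5, 12.2 and 13.6 (2.41 ± 0.12, adjusted p = 4.58e-05). After median-of-ratios scaling, which lowers every change by about the median shift, Vim, Zeb1 and Snai2 were called lower. Epcam stayed at most 0.52 TPM in each of the 6 tumors, and Cldn3 and Cldn4 at most 0.15 and 0.2.

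Among 10 tested hepatocyte and fetal liver genes, 9 were higher and 1 lower, with a median of 1.91; the other 12 of the 22 were too low to test. Hnf4a, the nuclear receptor that maintains hepatocyte identity, was at 1.38, 0.64 and 0.8 TPM in the NT tumors and 33.1, 22.7 and 26.6 in the LEN tumors, 29.2-fold higher (3.88 ± 0.19, adjusted p = 3.95e-05). Foxa2, a pioneer factor of endoderm, went from 0.17, 0.11 and 0.04 to 8.67, 6.57 and 7.72 TPM (2.96 ± 0.16, adjusted p = 5.29e-05), and the imprinted fetal RNA H19 from 7.59, 8.83 and 6.77 to 95.8, 76.7 and 87.7 (3.33 ± 0.12, adjusted p = 1.54e-05). Dlk1, a fetal liver surface protein, was the member that fell (-1.48 ± 0.21, adjusted p = 0.00251). The genes that define mature hepatocytes were at or near 0 throughout: Alb at most 0.09, Ttr 0.54 and Fgb 0 TPM in the 6 tumors. The fetal gene Afp was at most 0.74 TPM, so that the liver label of the line is not borne out by the plasma protein genes.

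The 12 protein-coding genes with the largest rises were Sprr2a2 (6.22), Sprr2a3 (6.14), Tff3 (5.77), Sprr1a (5.60), Chil4 (5.49), Prl2c3 (5.45), Krt19 (5.44), Ckm (5.36), Tspan8 (5.28), Krt8 (5.23), Myh4 (5.2) and Atp2a1 (5.19). Tff3, a peptide of mucous epithelia, was listed at 0 in the 3 NT tumors and at 62.5, 49.3 and 49.5 TPM in the LEN tumors, so its fitted change depends on the pseudocount. Sprr2a2 and Sprr2a3, small proline-rich proteins of stressed epithelium, are near-identical copies whose reads the counting could split either way, and they reached 102 to 278 and 139.6 to 294 TPM after LEN from at most 2.11 and 2.17. Sprr1a went from 1.84, 0.63 and 0.31 to 77.3, 72.6 and 118 TPM. The LEN tumors differed widely in Chil4, a chitinase-like protein of type 2 inflammation, with 9.53, 63.7 and 242 TPM, and in Prl2c3, a prolactin-family hormone, with 25.4, 89.6 and 218. Prl2c3 was at 37.9 to 44.4 TPM in the Base tumors. The skin keratin Krt14 was at most 3.80 TPM and Krt5 0.54 in the LEN tumors. The threshold was missed by Krt14 (without NT replicate 1, 3 or 4 and in the fit of 72 tumors). Chil4, Prl2c3, Ckm, Myh4 and Krt14 missed it by the two-group test per gene.

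Genes in 1 stretch of chromosome 10 rose together. Around Mdm2, the ubiquitin ligase that degrades p53, 19 tested protein-coding genes lie from Lgr5 to Cand1 (GRCm38 chr10:115450311-119240055, 3.79 Mb, positions from GENCODE M21), and 17 of them were higher after LEN with a median change of 2.25 over the 19. Of all 12864 tested protein-coding genes 4196 were higher, with a median of 0.20. Among the 10 tested genes before the stretch 0 were higher and 1 was lower (median -0.02), and among the 10 after it 2 were higher and 0 lower (median 0.19). The stretch was noticed after its values were seen, and it is described without a test of its own.

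Mdm2 was at 67.1, 56.5 and 55.0 TPM in the NT tumors and 339, 324 and 308 in the LEN tumors, 5.44-fold higher (2.43 ± 0.09, adjusted p = 1.54e-05). Cand1, which exchanges the substrate receptors of cullin ligases, went from 92.5, 92.4 and 85.7 to 492, 405 and 433 TPM (2.28 ± 0.08, adjusted p = 1.54e-05), Cct2, a subunit of the TRiC chaperonin, from 269, 246 and 232 to 1251, 974 and 950.3 (2.07 ± 0.12, adjusted p = 6.32e-05), and Frs2, the adaptor of FGF receptors, from 29.2, 30.8 and 27.5 to 132, 112 and 119 (2.01 ± 0.08, adjusted p = 2.14e-05). In all 4 genes every LEN tumor lay above every NT tumor. Tspan8, a tetraspanin, rose most, from 42.7, 36.3 and 27.7 to 1690, 1219 and 1331 TPM (5.28 ± 0.18, adjusted p = 1.47e-05), and Lgr5, a stem cell receptor, from 0.34, 0.46 and 0.41 to 11.6, 6.18 and 7.11 (2.69 ± 0.23, adjusted p = 0.000313).

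The members that did not pass were Ptprb, an endothelial phosphatase (-0.24 ± 0.10, adjusted p = 0.102), and Lyz2, the lysozyme of macrophages (-0.17 ± 0.16, adjusted p = 0.437). Lyz1, which shares much sequence with Lyz2, rose by 1.28. In the Base tumors Mdm2 was at 83.5, 84.2 and 86.0 TPM and Cand1 at 120.2, 122 and 98.3, above every NT tumor and below every LEN tumor, and over the 17 higher genes the median of Base minus NT was 0.32 on the log2 scale, beside -0.17 over all tested protein-coding genes. Over 16 of them tested in the fit of 72 tumors, the median change after LEN was 2.33 in BNL 1ME A.7R.1 and between -0.22 and 0.07 in the other 11 models. These genes were picked because they were called higher in these same tumors. A high median in this model therefore followed from the choice, which also favors low NT values, and both comparisons are descriptions. In 10-gene windows along all chromosomes, chosen after seeing this stretch, 13 windows held at least 8 genes called higher with a log2 change above 1, each of the 13 on chromosome 10 at this place, and 0 windows held 8 genes called lower below -1. DNA copy number was not measured here. Whether the higher levels of these genes arose during treatment or were carried by the cells that the LEN tumors grew from cannot be told apart with these RNA values, and the same holds for Krt8, Hnf4a and the other epithelial genes, which were high in the same 3 LEN tumors.

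**Figure D3:**
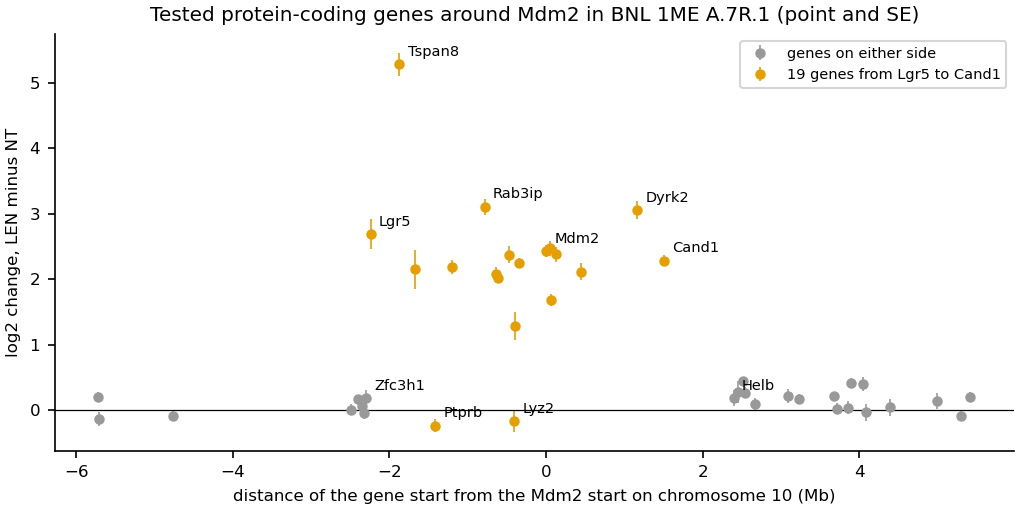
Log2 change (LEN minus NT, point and SE) of tested protein-coding genes of chromosome 10 against the distance of their start from that of Mdm2 in Mb. Of the genes from Lgr5 to Cand1, 17 lie between 1.28 and 5.28, Ptprb and Lyz2 lie near 0, and genes on either side lie near 0.

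The p53 targets, Mdm2 among them, moved both ways. Of 14, 6 were higher and 4 lower (3 and 5 after median-of-ratios scaling). Cdkn1a, the p53-induced inhibitor of the cell cycle, was at 36.5, 34.6 and 31.5 TPM in the NT and 46.7, 50.0 and 46.3 in the LEN tumors (0.47 ± 0.07, adjusted p = 0.00405), Bax did not pass (0.15 ± 0.07, adjusted p = 0.132), and Sesn1 fell (-0.96 ± 0.12, adjusted p = 0.00148). Ei24, which rose (0.58 ± 0.07, adjusted p = 0.00148), lies on another chromosome. Cell cycle genes were lower for 11 of 33 and higher for 4 (15 and 2 after median-of-ratios scaling), by small amounts. Among the members called lower were Ccnb2, a mitotic cyclin (39.0, 40.5 and 37.9 TPM in NT, 25.3, 25.2 and 22.6 in LEN, -0.66 ± 0.07, adjusted p = 0.000785), Cdc20 (-0.59) and Mki67 (-0.28), while Ccnd1, the cyclin of entry into the cycle, rose (0.55 ± 0.07, adjusted p = 0.00171). Of the 13 ERK feedback genes 4 were lower, among them Spry4 (-0.66 ± 0.11, adjusted p = 0.00471) and Spry1 (-0.47), which respond to growth factor receptors, and 3 were higher, among them Dusp4, a nuclear ERK phosphatase, which rose from 1.03, 1.35 and 0.76 to 17.1, 15.9 and 20.8 TPM (3.21 ± 0.15, adjusted p = 3.72e-05). After median-of-ratios scaling Dusp4 was the only one of the 13 called higher. Dusp6 did not pass (0.06 ± 0.09, adjusted p = 0.657). Of 9 immediate early genes, which also respond to the handling of tissue, 3 were higher (Fos, 1.02, Junb, 0.53, and Nr4a1, 0.57) and 1 lower (Egr1, -0.65), against 2 and 2 after median-of-ratios scaling. The call was lost for Egr1 (without LEN replicate 4 or 5 and in the fit of 72 tumors), Mki67 (without NT replicate 1 and in the fit of 72 tumors), Nr4a1 (without NT replicate 4 and after median-of-ratios scaling) and Spry1 (without LEN replicate 5 or NT replicate 3 or 4).

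Muscle and fat genes rose. Of 9 tested genes of the muscle, fat and skin list, 8 were higher and 0 lower, and the 10 genes summed to 30.1 to 96.4 TPM in the NT tumors, 1371 to 1975 in the LEN tumors and 252 to 576 in the Base tumors. Ckm, muscle creatine kinase, was at 13.8, 14.0 and 2.74 TPM in NT and 491, 308 and 376 in LEN tumors (5.36 ± 0.53, adjusted p = 0.000599), and Adipoq, a hormone of fat cells, at 1.02, 0.06 and 0.35 and 14.2, 5.19 and 16.4 (3.05 ± 0.43, adjusted p = 0.00253). Keratinocyte Krt5 was at 0 in 5 of the 6 tumors. These sums separate the groups, and the part of muscle and fat in other rises, such as those of Des, Lpl, Cd36 and Aldoa, was not tested.

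Fibroblast and interstitial matrix genes were lower for 6 of 17 and higher for 5 (9 and 4 after median-of-ratios scaling). Col1a2 was at 3236, 3646 and 3616 TPM in the NT and 2475, 2853 and 2519 in the LEN tumors (-0.42 ± 0.08, adjusted p = 0.00906), and Lum, a keratan sulfate proteoglycan, changed by -0.87. Col6a1 (0.50 ± 0.08, adjusted p = 0.00338) and Pi16, a marker of adventitial fibroblasts (2.88, 2.07 and 1.31 and 17.2, 12.4 and 17.8 TPM, 2.46 ± 0.22, adjusted p = 0.000399), rose. Of 12 tested matrix metalloproteinases and their inhibitors, 3 were lower and 6 higher. Mmp12, the macrophage elastase, rose from 5.64, 8.38 and 3.56 to 26.8, 33.8 and 44.1 TPM (2.42 ± 0.28, adjusted p = 0.00121) and Timp2 by 1.08, and Mmp2, the gelatinase of fibroblasts, fell (-0.50 ± 0.07, adjusted p = 0.00246). Single settings ended the call of Col1a2 (in the fit of 72 tumors), Col6a1 (in the fit of 72 tumors), Lum (in the fit of 72 tumors) and Mmp2 (in the fit of 72 tumors).

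Genes of antigen presentation by MHC class II rose. H2-Ab1 was at 79.6, 83.4 and 51.3 TPM in the NT tumors and 237, 249.6 and 247 in the LEN tumors (1.79 ± 0.17, adjusted p = 0.000561), H2-Aa at 85.7, 88.1 and 62.4 and 273, 249 and 278 (1.76 ± 0.13, adjusted p = 0.000202), and Cd74, the invariant chain, at 329, 349 and 215 and 996, 1016 and 1042 (1.80 ± 0.17, adjusted p = 0.000542). Ciita, the transactivator of these genes, changed by 1.11. The changes of MHC class I genes were smaller, as for B2m (0.07 ± 0.08, adjusted p = 0.576) and H2-D1 (0.32 ± 0.08, adjusted p = 0.0219). Over the 15 antigen presentation genes 7 were higher and 0 lower, against 5 and 2 after median-of-ratios scaling. The calls of H2-Ab1, Cd74, Ciita and H2-D1 did not hold under the two-group test per gene (adjusted p = 0.0703 to 0.0914). That of H2-D1 was also lost without LEN replicate 4 or 5 or NT replicate 1 or 4. It was lost as well in the fit of 72 tumors and after median-of-ratios scaling.

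Macrophage and monocyte genes were higher for 7 of 22 tested and lower for 3, a share of higher calls near the 26.3% of all genes. C1qa, a complement subunit made by macrophages, stood at 274 to 284 TPM in NT and 264 to 326 in LEN tumors (0.11 ± 0.09, adjusted p = 0.368) and Adgre1, the antigen F4/80, at 38.2 to 40.4 and 35.3 to 49.3 (0.05 ± 0.12, adjusted p = 0.802), and neither passed the test. Csf1r, the macrophage growth factor receptor, fell (-0.35 ± 0.07, adjusted p = 0.00925), as did Folr2 (-0.96) and Cx3cr1 (-0.62), which mark resident cells. Among the members called higher were Cd14 (15.8, 19.2 and 19.1 TPM in NT, 70.3, 52.1 and 46.0 in LEN, 1.57 ± 0.16, adjusted p = 0.000699), a co-receptor for endotoxin, Ly6c2 (1.36), Spp1 (1.06) and Apoe (1.17). Apoe and Spp1 are also made by other cells. The threshold was missed by Csf1r (in the fit of 72 tumors) and Cx3cr1 (without LEN replicate 4 or 5 or NT replicate 3 or 4 and in the fit of 72 tumors). Both, and Folr2, Ly6c2, Spp1 and Apoe, missed it by the two-group test per gene.

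Of 21 T cell and NK cell genes, 15 were high enough to test and 8 of these were higher, with 0 lower (8 and 0 also after median-of-ratios scaling). Levels were low. Cd3e was at 2.64, 2.01 and 1.86 TPM in NT and 5.0, 5.45 and 4.63 in LEN tumors (0.93 ± 0.14, adjusted p = 0.00350), Cd8a at 0.27, 0.95 and 0.49 and 1.60, 2.04 and 2.06 (0.90 ± 0.22, adjusted p = 0.0219), and Tigit, an inhibitory receptor, at 1.09, 0.76 and 0.66 and 3.42, 4.43 and 6.52 (1.63 ± 0.23, adjusted p = 0.00245). Of the cytotoxic genes, Gzmb stood at 2.74 to 3.45 and 2.76 to 3.05 TPM (-0.03 ± 0.13, adjusted p = 0.870) and Prf1 differed by 0.39 ± 0.20, adjusted p = 0.181, and neither passed. Of the 18 genes of Tcell_inf_GEP, a profile of T cell inflammation, 17 were tested and 12 were higher, with 0 lower and a median of 0.75 (9 higher and 1 lower after median-of-ratios scaling). Cd274, which encodes PD-L1, was at 1.53, 1.77 and 1.15 and 3.16, 5.35 and 6.23 TPM (1.22 ± 0.23, adjusted p = 0.00847). The call was lost for Cd3e (in the fit of 72 tumors) and Cd8a (without LEN replicate 4 or 5 or NT replicate 1 or 4). Cd8a, Tigit and Cd274 lost it by the two-group test per gene.

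Interferon-stimulated genes were higher for 12 of 22 and lower for 0 (7 and 1 after median-of-ratios scaling), as Isg15 (20.2, 23.8 and 15.1 TPM in NT, 34.5, 33.7 and 35.8 in LEN, 0.81 ± 0.15, adjusted p = 0.00788) and Ifit1 (0.99). Of 9 tested dendritic cell genes 5 were higher and 1 lower, among them Cd209a (1.43 ± 0.23, adjusted p = 0.00470) and Ccr7 (0.97), while the 1 that fell, Fscn1, is abundant in many tumor cells. Of 9 tested neutrophil genes and CXCR2 chemokines 3 were higher and 2 lower. S100a8 did not pass (0.11 ± 0.29, adjusted p = 0.801), and Retnlg, called higher, spread from 2.14 to 11.4 TPM among the LEN tumors and lost the call under median-of-ratios scaling. B cell genes were near 0: Cd79b alone of 7 was tested (0.87 ± 0.19, adjusted p = 0.0155), and Ms4a1, which encodes CD20, was at most 0.11 TPM. Single settings ended the call of Cd79b (without LEN replicate 5 or NT replicate 4), Fscn1 (without NT replicate 1 or 3 and in the fit of 72 tumors), Isg15 (in the fit of 72 tumors) and Retnlg (without LEN replicate 4 or 5 or NT replicate 1, 3 or 4). The two-group test per gene ended those of Cd209a, Ccr7, Fscn1, Isg15 and Retnlg.

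**Figure D4:**
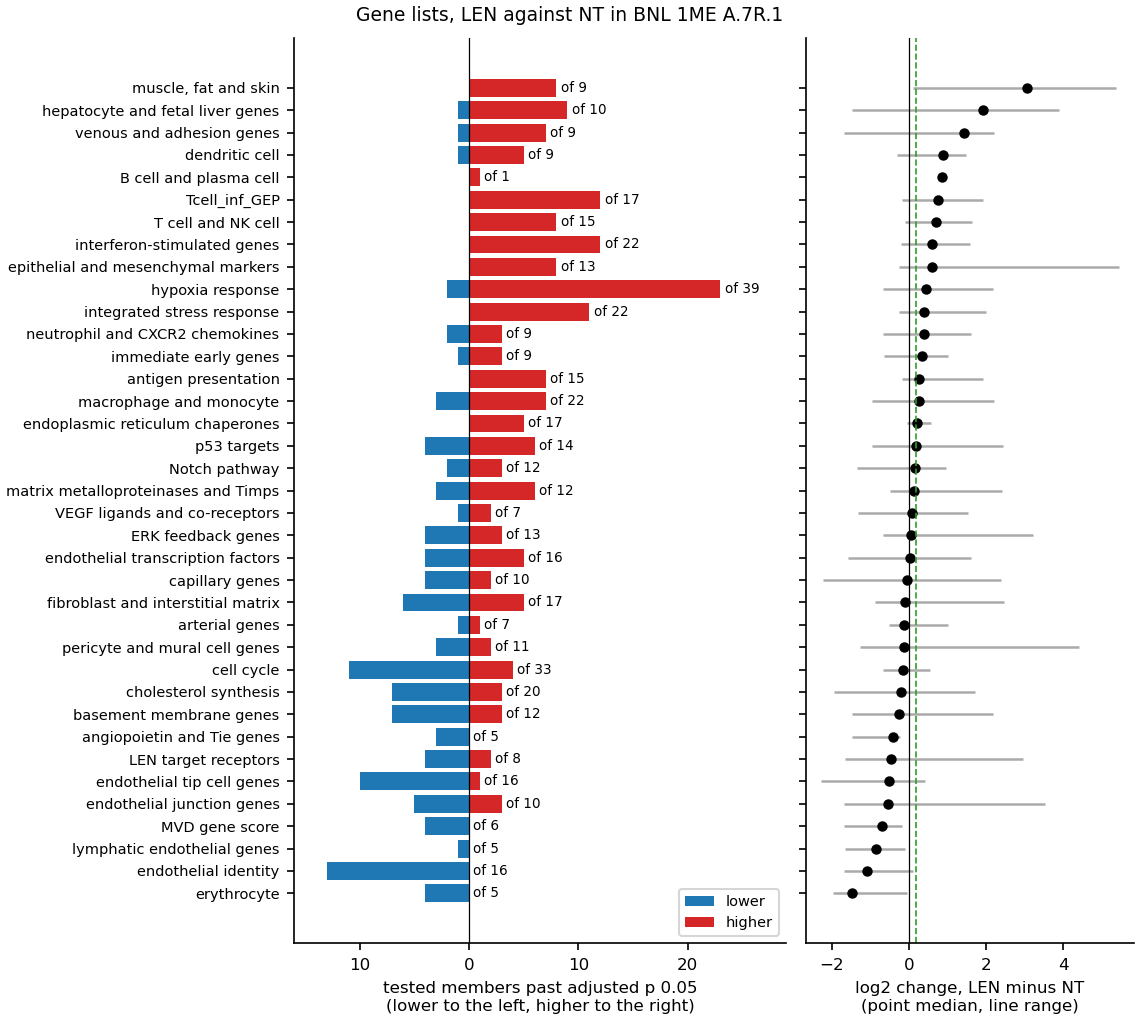
Gene lists ordered by their median log2 change, with the number of tested members lower (left) and higher (right) after LEN at an adjusted p under 0.05 in the left panel, and the median (point) and range (line) of log2 change in the right panel. Erythrocyte and endothelial identity genes have the lowest medians, and muscle, fat and skin genes the highest, with the dashed line at 0.17, the median of all tested genes.

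Among the 12 protein-coding genes with the largest falls were Mme (-2.55), Esm1, Gpihbp1, Prnd (-1.99), Hbb-bs, Trp53i11, Mest (-1.85), Bcl6b (-1.75), Mfap4 (-1.72), Cdh5 and Icam2. Mme, the membrane peptidase neprilysin, was at 44.8, 63.5 and 51.2 TPM in the NT tumors and 7.06, 6.59 and 11.5 in the LEN tumors, 6.35-fold lower (-2.55 ± 0.21, adjusted p = 0.000300). Prnd, the prion-like protein doppel of sprouting endothelium, went from 14.6, 16.3 and 14.1 to 2.90, 3.19 and 2.94 TPM (-1.99 ± 0.10, adjusted p = 3.72e-05), and Bcl6b, an endothelial repressor, from 8.93, 8.08 and 7.85 to 2.13, 1.62 and 1.53 (-1.75 ± 0.13, adjusted p = 0.000179). Mest, an imprinted gene, went from 153, 224 and 160.1 to 47.4, 46.6 and 50.0 TPM (-1.85 ± 0.14, adjusted p = 0.000212), and Mfap4, an elastic fiber protein, from 147, 197 and 148 to 41.5, 48.1 and 57.3 (-1.72 ± 0.15, adjusted p = 0.000389). Base tumors had only 15.3 to 16.4 TPM of Mfap4 and 34.9 to 52.5 of Mest.

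The change in BNL 1ME A.7R.1 was then tested against that in the other models. In 1 fit of the 72 day 8 tumors, over 17351 genes, the effect of LEN in BNL 1ME A.7R.1 was above the mean effect of the other 11 models for 3422 genes (19.7%) and below it for 389 (2.24%). Against Hepa 1-6, the other hepatocellular carcinoma, it was above for 1375 genes (7.92%) and below for 588 (3.39%). Against Renca, a renal carcinoma on the same mouse strain, it was above for 2870 (16.5%) and below for 300 (1.73%). The split again depended on the scaling: with median-of-ratios scaling 1807 genes were above the mean of the other models and 1584 below.

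Several endothelial genes were also lower in the other models. The mean of Cdh5, Kdr, Nid2 and Gpihbp1 was lower after LEN in each of the other 11 models, and their change in BNL 1ME A.7R.1 missed the threshold for a difference from the mean of the others (Cdh5 difference -0.56 ± 0.22, adjusted p = 0.0649; Kdr -0.42 ± 0.19, adjusted p = 0.10). Pcdh12 (-0.91 ± 0.17, adjusted p = 2.57e-05), Flt4 (-1.0 ± 0.15, adjusted p = 3.75e-07), Esm1 (-1.07 ± 0.26, adjusted p = 0.00166) and Tie1 (-0.70 ± 0.21, adjusted p = 0.0106) fell further here than in the mean of the others. The other models ranged from -0.99 to -0.45 for Pcdh12, -1.37 to 0.10 for Flt4, -3.08 to 0.43 for Esm1 and -1.44 to -0.35 for Tie1, so that for Esm1 at least 1 other model fell by more. Of 13 endothelial identity genes in this fit, 3 had a lower effect here and 0 a higher one. Flt1 differed in direction, rising here and changing by a mean of -0.58 in the others (difference 1.71 ± 0.24, adjusted p = 9.05e-08). Vegfa was higher after LEN in the mean of all 12 models, and its change was larger here (difference 0.95 ± 0.20, adjusted p = 0.000301). Pgf changed by a mean of 0.23 in the others (difference -1.56 ± 0.28, adjusted p = 2.10e-05).

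Krt8 and Cdh1 rose more in BNL 1ME A.7R.1 than in the mean of the others. The change of Krt8 in the other models ranged from -0.43 to 0.39 (difference from their mean 5.25 ± 0.28, adjusted p = 7.01e-22), and that of Cdh1 from -0.24 to 0.65 (3.93 ± 0.21, adjusted p = 1.30e-21). Hnf4a was under 1 TPM in every day 8 tumor of 10 of the other 11 models, which leaves little to compare, so its difference is not given as a test. In Hepa 1-6, the other liver model, where it reached 38.3 TPM, it changed by 0.08. Hepa 1-6 had 0.17 for Krt8, and the difference was 5.06 ± 0.38 (adjusted p = 1.13e-15). Mdm2 (2.25 ± 0.10, adjusted p = 3.16e-25), Tspan8 (5.36 ± 0.20, adjusted p = 8.72e-29) and Dusp4 (2.96 ± 0.20, adjusted p = 1.02e-17) differed in the same way, although Tspan8 was under 1 TPM throughout 4 of the other models and Krt8 throughout 2. Mme changed by -0.29 to 0.31 in the other models, but it was under 1 TPM throughout 9 of them. Ckm also rose more here than in the mean of the others (4.60 ± 0.69, adjusted p = 4.85e-07), so muscle RNA moved with these differences as well. For MHC class II the other models ranged widely, from -0.83 to 2.56 for H2-Ab1 (1.42 ± 0.47, adjusted p = 0.0211).

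**Figure D5:**
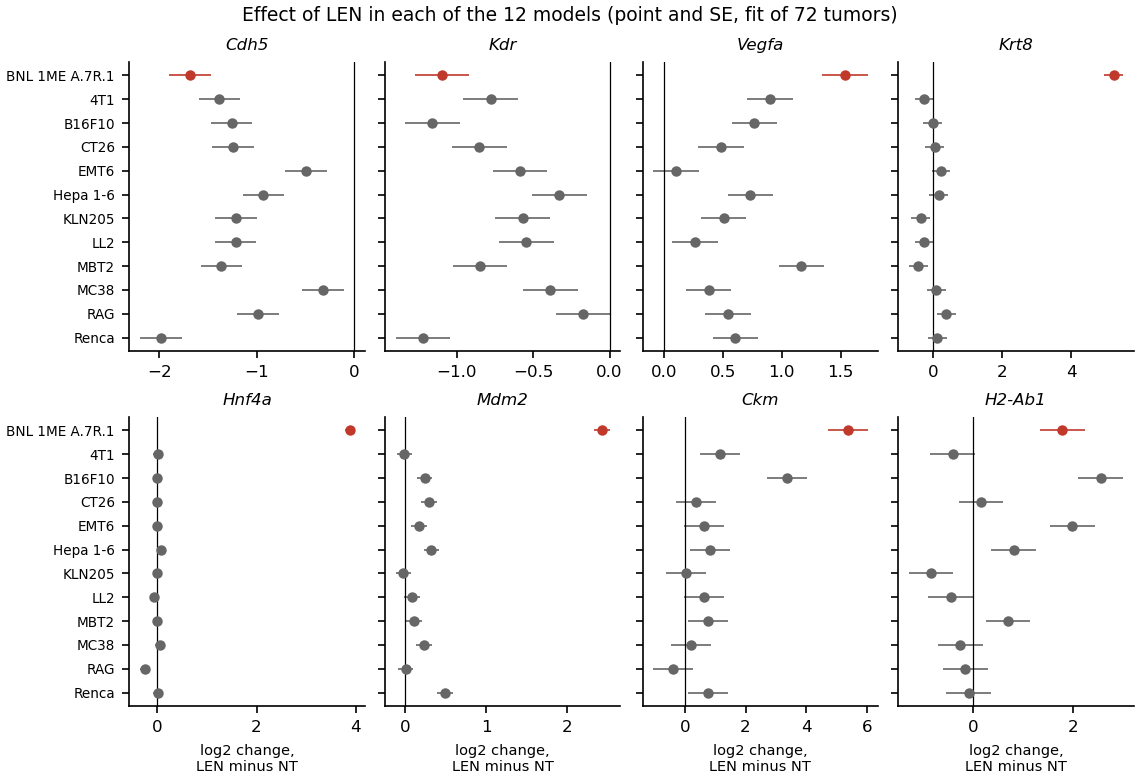
Log2 change of 8 genes after LEN (horizontal axes, point and SE) in each of the 12 models from the fit of 72 tumors, with BNL 1ME A.7R.1 in red. Cdh5 and Kdr lie below 0 and Vegfa above 0 in every model, whereas BNL 1ME A.7R.1 lies far above the others for Krt8, Hnf4a and Mdm2, with Hnf4a under 1 TPM in 10 of the other models.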

How the data were processed

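RNA from subcutaneous tumors was sequenced after depletion of ribosomal RNA. Per the labels and the study's methods, the authors trimmed reads with Trimmomatic 0.36, mapped them to mm10 (GRCm38) with STAR 2.5.2b and quantified genes by RSEM 1.2.31, and they deposited TPM for 50686 genes in 107 tumors. TPM has a fixed total, so depth and counting error are unknown. The methods name more than 1 sequencing instrument without saying which tumor was run on which, so an instrument effect was not tested.

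Genes averaging at least 1 TPM were analyzed as log2(TPM + 1) by limma 3.58.1 under R 4.3.3, using eBayes with its trend option, and Benjamini-Hochberg adjustment at 0.05. The 6 BNL 1ME A.7R.1 tumors were fitted alone, and the 72 day 8 tumors as 24 groups for differences between models. Gene types and positions came from GENCODE M21 and promoter sequences from RefSeq (GRCm38.p6). The fits were run on simulated normal values with changes seeded in 200 genes of higher level. That check does not cover the fixed TPM total, a shift of most genes or genes of low level.

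The 37 gene lists and the tumors were chosen with earlier results of these data known. Genes named individually are the 6 genes of the MVD gene score and the 10 LEN target receptors, up to 4 members of each list with the lowest adjusted p under 0.05 (up to 2 by level where none passed), the 12 largest falls and the 12 largest rises among named protein-coding genes whose groups did not overlap, with a mean of at least 2 TPM in the higher group, and the 5 genes each way that differed most from the other models. Other list members, and the genes of chromosome 10, were named after their values were seen. Some genes that the rule names are not reported here. The alternatives were other pseudocounts, filters and scalings, no trend, the fit of 72 tumors, a two-group test per gene as in the study and leaving out each tumor. Python 3.11.15, numpy 2.4.6, pandas 2.3.3 and matplotlib 3.10.9 were used.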

Additional observations from a re-analysis of the deposited data

Results flagged for a closer look

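The effect of LEN differed between BNL 1ME A.7R.1 and other models by a limma test of the difference itself. It was higher than the mean effect of the other 11 models for 3422 genes and lower for 389, higher than in Hepa 1-6 for 1375 and lower for 588, and higher than in Renca for 2870 and lower for 300.

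The 5 genes with the largest excess over the mean of the other 11 models, on the log2 scale, were Sprr2a3 (5.93), Sprr2a2 (5.81), Tff3 (5.71), Prl2c3 (5.50) and Chil4 (5.46). These values are descriptions, because many of the other models lacked the gene: all day 8 tumors were under 1 TPM in 8 of the 11 models for Sprr2a3, 4 for Sprr2a2, 10 for Tff3, 4 for Prl2c3 and 11 for Chil4. Tff3 was also listed at 0 in the 3 NT tumors of BNL 1ME A.7R.1, so the size of its value depends on the pseudocount. Among the 5 largest deficits were those of Mme (-2.60, with 9 of the models under 1 TPM), Crabp1 (-1.59 ± 0.35, adjusted p = 0.000485), Hspa1a (-1.58 ± 0.37, adjusted p = 0.00117) and Pgf (-1.56 ± 0.28, adjusted p = 2.10e-05). Crabp1, a carrier of retinoic acid, was at 1290.2, 1434 and 1260.1 TPM in the NT tumors and 442, 531 and 596 in the LEN tumors. Hspa1a, a heat shock protein, was at 3.80, 2.74 and 4.37 and 1.46, 1.90 and 1.61 TPM and has a near-identical copy, so its reads are uncertain. Its change here was -0.79, smaller than the deficit, so the mean of the other models rose. That change missed the threshold without NT replicate 1 or 4, in the fit of 72 tumors (adjusted p = 0.102) and by the two-group test. With 3 tumors per group, no tumor was tested for standing apart.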

How the results depend on the processing

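Beside 887 genes lower and 4478 higher after LEN, upper-quartile scaling gave 1937 and 2258, protein-coding scaling 1495 and 2861, median-of-ratios scaling 1968 and 2310, and the two-group test per gene 287 and 1876, while the fit of 72 tumors gave 587 lower. Leaving out 1 tumor gave 563 to 796 lower, the 563 without NT replicate 3, and 3067 to 3894 higher. The 118 EC-related genes lower became 57 and the 68 higher became 28 by the two-group test, 43 were higher with upper-quartile and 44 with median-of-ratios scaling, and leaving out 1 tumor gave 90 to 107 and 48 to 58. The difference in MVD gene score, -0.86, was -0.99 at a pseudocount of 0.1, -1.04, -1.03 and -1.03 under the 3 scalings in that order, and -0.88 to -0.82 without single tumors.

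Against the mean of the other models, 389 genes lower became 213 at a pseudocount of 0.1, 747 with no minimum, 211 at a minimum of 5 TPM, and 1128, 725 and 1584 under the 3 scalings, and 3422 higher became 2029 with upper-quartile and 1807 with median-of-ratios scaling. Against Hepa 1-6, 588 lower became 1039, 348, 1134, 1096 and 1237 under these settings from no minimum on. Against Renca, 300 lower became 195, 716, 171, 1044, 596 and 1198 from the pseudocount on, and 2870 higher became 1699 with upper-quartile and 1666 with median-of-ratios scaling. Leaving out 1 BNL 1ME A.7R.1 tumor gave 254 to 362 lower (254 without NT replicate 3) and 2455 to 2908 higher against the others, 405 to 593 and 1110 to 1271 against Hepa 1-6, and 215 to 280 and 2299 to 2663 against Renca. The cause of these moves was not tested.

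Of 218 tested genes followed across settings, not all of them named here, 187 kept their call and direction under median-of-ratios scaling. Under the two-group test 133 did and 85 lost the call. The 85 included Vcam1, Lrg1, Vwf, Selp, Icam2, Gpihbp1, Fbln5, Adipoq, Atf5, Trib3, Lgr5, Lyz1, Mest and Hspa1a. Of 212 in the fit of 72 tumors 174 did and 37 lost the call. Genes without a call changed sign under upper-quartile, protein-coding and median-of-ratios scaling, in that order, for Adgre1 (-0.15, -0.085, -0.15), B2m (-0.14, -0.065, -0.14), C1qa (-0.092, -0.021, -0.091), Dusp6 (-0.14, -0.071, -0.14), Ecscr (-0.087, -0.019, -0.086), Hspa5 (-0.10, -0.028, -0.10), Nrp1 (-0.13, -0.058, -0.13), Nrp2 (-0.12, -0.050, -0.12) and S100a8 (-0.072, -0.0100, -0.071), and Bax under the first and last (-0.047 and -0.046). Without single tumors the sign of uncalled changes varied, Adgre1 from -0.091 to 0.14, Dusp6 from -0.021 to 0.12, Gzmb from -0.080 to 0.046, Ret from -0.27 to 0.012, S100a8 from -0.11 to 0.43, Snai1 from -0.13 to 0.011 and Vim from -0.10 to 0.014. No paired analysis was possible because the NT and LEN tumors share only 1 replicate number. Depth is unknown for each tumor.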
